A study of Rattus norvegicus with 9 samples.

Results

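Serpins are a superfamily of proteins that share 1 fold, and most of them inhibit proteases. The serpin genes described here are all genes whose only annotated symbol begins with Serpin, a clade letter from a to i and a digit, and 33 such genes were measured among 14217 genes with a single symbol on the array. They were represented by 38 of the 31042 probe sets tested, and each gene was followed through its brightest probe set, the one with the highest mean log2 intensity over the 9 arrays. By clade letter there were 12 genes of clade A, 11 of clade B, 2 each of clades E, F and I, and 1 each of clades C, D, G and H. Of the 33 genes, 15 lay in the dimmest 40% of all probe sets (mean at or below 4.55 log2) and are called dim, because no detection calls accompany the values.

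An inhibitory serpin offers a protease an exposed loop as bait, and when the loop is cut the serpin changes shape and traps the enzyme in a covalent complex, so that each molecule acts once. Clade A holds antitrypsin, the antichymotrypsin-like serpins of the acute phase response and several hormone carriers. Clade B serpins lack a classical signal peptide, are largely intracellular, and many are made by stratified squamous epithelium and by leukocytes. Other clades include antithrombin, the inhibitors of plasminogen activation and plasmin, the complement C1 inhibitor, the antiangiogenic factor Serpinf1 and the collagen chaperone Serpinh1.

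The samples were tongue tissue of Sprague Dawley rats on Affymetrix rat genome arrays, 1 array per sample and 3 per group. The normal group drank distilled water. The 4NQO group was given 4-nitroquinoline 1-oxide (4NQO) at 0.002% in its drinking water, a carcinogen that takes tongue epithelium through dysplasia to squamous cell carcinoma, and from week 14 to week 22 it received saline injections under the tongue mucosa. The IL-1Ra group received the same carcinogen and, over the same weeks, recombinant IL-1 receptor antagonist (IL-1Ra) in place of saline. The IL-1Ra and normal groups therefore differ by carcinogen, antagonist and injection together. The 4NQO and normal groups differ by carcinogen and saline injection together, and these cannot be told apart. The labels place sacrifice between weeks 14 and 22 when lesions were visible, whereas the study's methods place it at the end of week 22, and the lesion stage of each arrayed tongue was not used here. The tissue was labelled tongue. By the study's methods each tongue was cut lengthwise, with 1 side used for histology and the other stored for experiments. Of 13 skeletal muscle markers 1 was dim, and 9 of 11 salivary gland markers were dim. None of 16 markers of the cornified layer and none of 10 of basal keratinocytes was dim. Array medians lay between 37.5 and 38.6 intensity units, while the actin control's 3′ minus 5′ difference, a sign of RNA quality, was 0.74 to 0.86 log2 in the normal group, 1.07 to 1.29 in the 4NQO group and 0.98 to 1.27 in the IL-1Ra group. The same difference of the GAPDH control was 0.23 to 0.30 log2 in the normal group and 0.31 to 0.43 in the 4NQO group. In the IL-1Ra group it was 0.26 to 0.28, within the normal range. The part of RNA quality in any group difference was not tested.

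Clade A and clade B genes sit in runs along the chromosomes. In the RefSeq annotation of GRCr8, Serpinb3, Serpinb11, Serpinb7, Serpinb2 and Serpinb10 follow each other in this order within a run of 6 serpin genes on chromosome 13, and Serpinb12 lies in a neighbouring run of 4 that is separated from it by 1 other protein-coding gene. Of the clade A genes, 11 lie in a run of 18 serpin genes that holds Serpina12 and Serpina3n. Stretches upstream of the transcription start were matched for 27 of the 33 genes, all but Serpina10, Serpina3c, Serpina6, Serpinb12, Serpind1 and Serping1. The 250 bases upstream of the RefSeq start are given for the 3 neighbours called in both of the first comparisons, for the neighbour Serpinb3, which was called in none, and for Serpina3n and Serpina12, the clade A genes with the largest differences. They are written 5′ to 3′ on the gene's strand with motif matches in capitals.
Serpinb7, chr13:23910056-23910305, + strand: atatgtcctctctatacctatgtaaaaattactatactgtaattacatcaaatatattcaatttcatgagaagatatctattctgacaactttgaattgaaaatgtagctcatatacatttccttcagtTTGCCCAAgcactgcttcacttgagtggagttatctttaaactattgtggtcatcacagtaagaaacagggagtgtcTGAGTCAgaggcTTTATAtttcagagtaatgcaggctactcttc
Serpinb11, chr13:23840576-23840825, + strand: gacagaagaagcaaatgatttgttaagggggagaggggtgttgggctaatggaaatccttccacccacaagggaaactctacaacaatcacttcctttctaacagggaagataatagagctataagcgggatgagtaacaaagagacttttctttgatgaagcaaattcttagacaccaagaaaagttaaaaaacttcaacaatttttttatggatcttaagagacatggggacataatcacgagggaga
Serpinb2, chr13:24055771-24056020, + strand: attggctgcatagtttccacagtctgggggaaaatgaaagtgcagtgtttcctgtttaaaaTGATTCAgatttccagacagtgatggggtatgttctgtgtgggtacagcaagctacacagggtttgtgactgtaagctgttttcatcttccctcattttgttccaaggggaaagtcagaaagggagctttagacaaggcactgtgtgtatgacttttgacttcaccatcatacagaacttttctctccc
Serpinb3, chr13:23795299-23795548, - strand: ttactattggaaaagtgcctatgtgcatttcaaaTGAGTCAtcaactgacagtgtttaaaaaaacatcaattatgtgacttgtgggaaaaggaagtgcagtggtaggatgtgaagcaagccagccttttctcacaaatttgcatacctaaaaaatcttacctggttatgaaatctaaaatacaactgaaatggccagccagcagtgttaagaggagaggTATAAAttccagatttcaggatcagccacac
Serpina3n, chr6:129088142-129088391, + strand: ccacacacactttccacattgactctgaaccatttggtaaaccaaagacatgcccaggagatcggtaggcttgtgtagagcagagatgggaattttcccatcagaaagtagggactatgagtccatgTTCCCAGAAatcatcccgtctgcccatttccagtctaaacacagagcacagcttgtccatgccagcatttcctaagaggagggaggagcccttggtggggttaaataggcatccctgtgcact
Serpina12, chr6:128732050-128732299, - strand: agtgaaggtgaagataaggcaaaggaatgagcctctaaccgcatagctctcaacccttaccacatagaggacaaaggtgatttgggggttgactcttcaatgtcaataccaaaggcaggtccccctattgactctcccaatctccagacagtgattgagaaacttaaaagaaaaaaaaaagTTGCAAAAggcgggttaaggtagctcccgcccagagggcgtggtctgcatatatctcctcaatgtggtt

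Both strands were searched for 5 motifs: the TATA box (TATAAA), AP-1 (TGANTCA), STAT (TTCNNNGAA), C/EBP (TTGCNNAA) and an E-box (CACGTG). The Serpinb7 window held an AP-1 match at bases 44 to 38 before the start, a TATA box match on the opposite strand at bases 32 to 27, and a C/EBP match at bases 121 to 114. The Serpinb3 window held a TATA box match at bases 31 to 26 and an AP-1 match at bases 216 to 210, and the Serpinb2 window held an AP-1 match at bases 189 to 183. The Serpina3n window held a STAT match at bases 123 to 115, the Serpina12 window a C/EBP match at bases 69 to 62, and the Serpinb11 window none of the 5. The 27 serpin genes had 28 windows, since Serpinb6a has 2, and 4 of the genes had a TATA box match, 3 an AP-1 match, 4 a STAT match, 7 a C/EBP match and none an E-box match. Among all 33469 RefSeq windows of the same length the shares were 12.9% for the TATA box, 6.34% for AP-1, 7.67% for STAT, 9.22% for C/EBP and 5.59% for the E-box. The 3 serpin genes with an AP-1 match were Serpinb7, Serpinb2 and Serpinb3, which lie in the same run. A match describes the letters and not a bound site, and the absence of a match says nothing about the factor.

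The first comparison asked which serpin genes differed between the 4NQO group, given carcinogen and saline injections, and the normal group. In the 4NQO group Serpinb7, Serpinb11, Serpinb12, Serpinb2, Serpinf1 and the dim Serpina3c fell, and Serpina3n, Serpinb1a and Serpinb6a rose. Changes ranged from 6.18-fold lower for Serpinb7 to 7.71-fold higher for Serpina3n. A gene is said to have changed when its limma p, adjusted by Benjamini-Hochberg over all 31042 probe sets, was under 0.05. By this rule 9 of the 33 genes changed, where 14.9% of all probe sets did. The 3 that rose stand beside a background of 9.41% and the 6 that fell beside 5.44%. Through the brightest probe set of each of the 14217 genes, as for the serpins, 17.4% changed, 1757 higher and 722 lower. Their median was 0.08 log2. The median serpin difference was -0.29 log2 against 0.01 over all probe sets, and 24 of the 33 estimates were below 0. The values of both groups did not overlap for 17 genes, where 38.2% of all probe sets did not. Of the 18 genes that were not dim 8 changed, and of the 15 dim genes 1 did. A fit without the dimmest 40% of all probe sets called 4413 probe sets, beside 4610 in the fit of all. The contrast by brightness is therefore not read as a result about serpins. The moderated F test over all groups called 9 serpin genes, beside 14.3% of the 14217 genes read through their brightest probe set. Among them were 8 of these genes and Serpinf2, but not Serpina3n (adjusted p = 0.0719, limma).

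**Figure D1:**
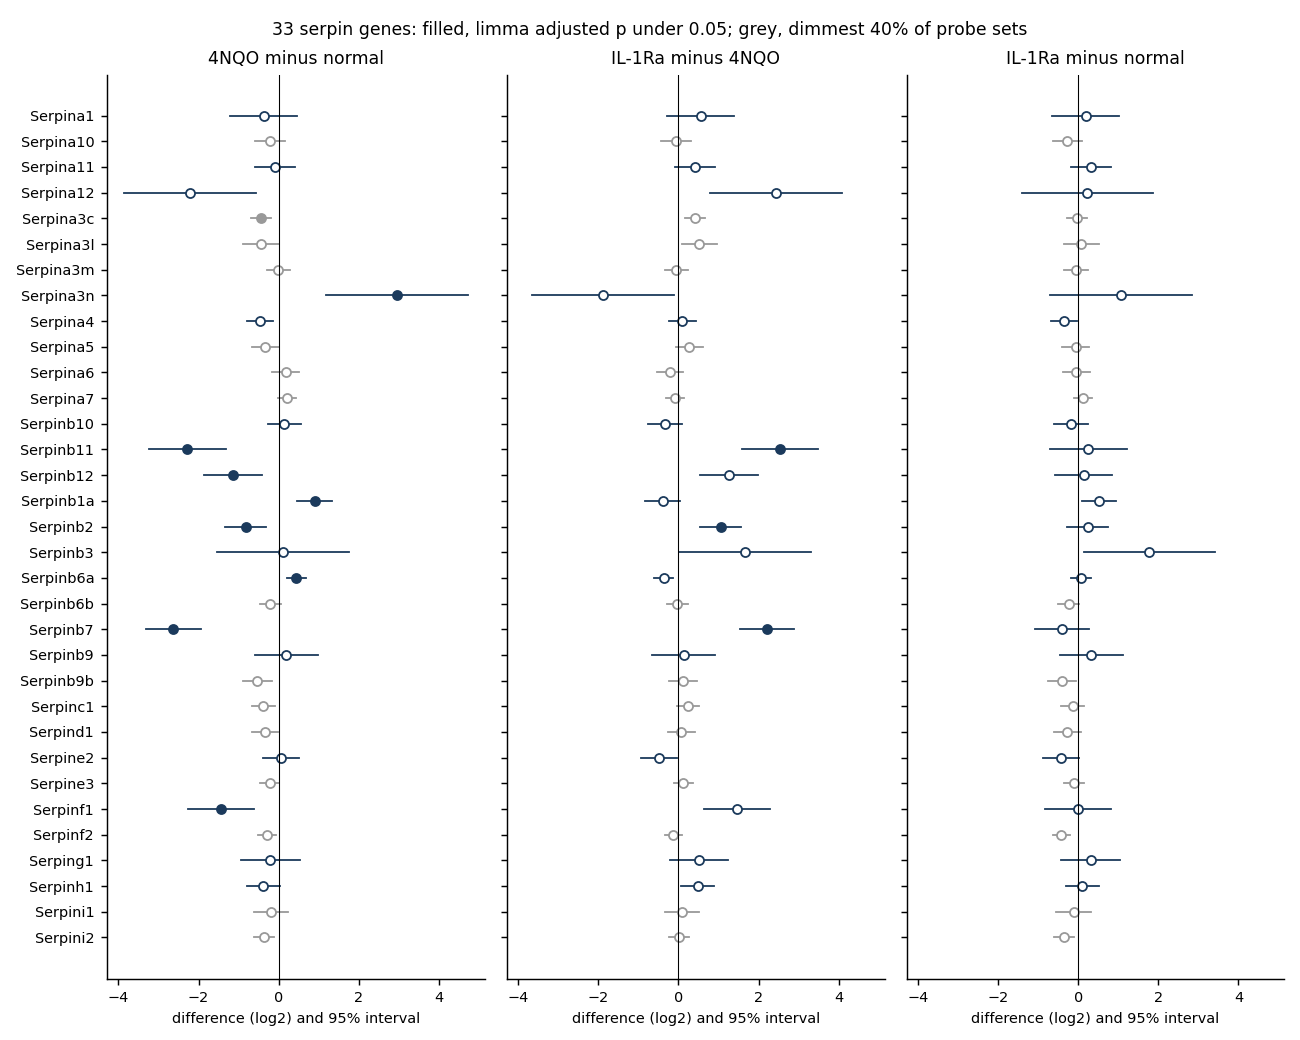
Differences between groups (log2, x axis) with 95% intervals for the 33 serpin genes (y axis) in 3 comparisons; filled points passed an adjusted p of 0.05 in limma and grey marks dim genes. In the first panel 9 points are filled, in the second 3 (Serpinb7, Serpinb11 and Serpinb2), and in the third none.

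Of the 6 genes that fell 4 belonged to clade B, and 3 of these lie in 1 run. Serpinb7, a keratinocyte serpin whose loss in humans causes a palmoplantar keratosis, read 7.36, 6.91 and 7.71 log2 on the normal arrays and 4.64, 4.44 and 5.02 on the 4NQO arrays. On the IL-1Ra arrays it read 6.60, 7.63 and 6.52. All 3 4NQO arrays lay below every other array by more than 1 log2, and the normal and IL-1Ra arrays overlapped. Serpinb7 fell by 2.63 on the log2 scale in the 4NQO group (95% interval -3.30 to -1.95, limma adjusted p = 0.00367). Its second probe set, with 7.19 ± 0.34, 4.46 ± 0.35 and 7.17 ± 0.85 log2 (SD, n = 3) in the normal, 4NQO and IL-1Ra groups, fell by 2.73 (limma adjusted p = 0.00475).

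Serpinb11, a clade B serpin, read 10.39, 9.97 and 10.44 log2 on the normal arrays, 8.60, 6.76 and 8.60 on the 4NQO arrays and 10.27, 10.93 and 10.36 on the IL-1Ra arrays. Serpinb12, described as an inhibitor of trypsin-like proteases, read 12.58, 12.30 and 12.51, then 11.72, 10.37 and 11.90, then 12.55, 12.68 and 12.55 in the same order. For both genes every 4NQO array was below every other array, and the 4NQO array 2 was the lowest of the 9. Serpinb11 fell 4.85-fold (log2 difference -2.28, interval -3.23 to -1.32, limma adjusted p = 0.0114) and Serpinb12 fell 2.19-fold (-1.13, -1.85 to -0.41, adjusted p = 0.0433). The Serpinb12 call was lost under 11 of 17 alternatives, among them both other scalings (adjusted p = 0.0704 and 0.0666 in limma), and its difference shrank to -0.65 without the 4NQO array 2 (adjusted p = 0.0173). Serpinb2, plasminogen activator inhibitor type 2, which inhibits urokinase and is abundant in differentiating keratinocytes, read 10.46, 9.86 and 10.39 log2 on the normal arrays, 9.22, 9.10 and 9.92 on the 4NQO arrays and 10.50, 10.61 and 10.29 on the IL-1Ra arrays. Its groups touched, since the highest 4NQO array lay just above the lowest normal array, and the difference was 1.77-fold (-0.82, -1.33 to -0.31, adjusted p = 0.0396). In bulk tissue, fewer cells of a type and less RNA per cell cannot be told apart.

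**Figure D2:**
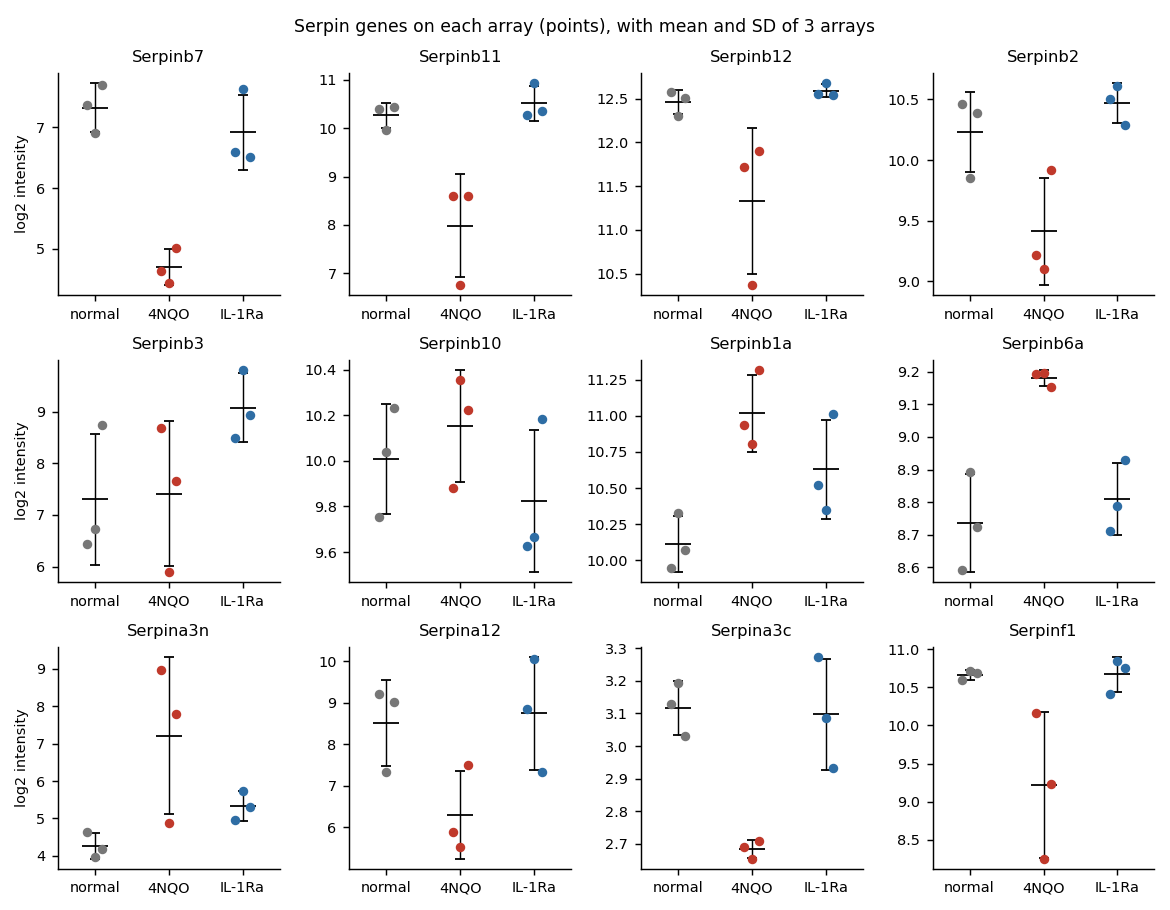
Log2 intensity (y axis, a separate scale in each panel that does not start at 0) of 12 serpin genes on each array, by group (x axis); points are arrays and bars show the mean and SD of 3. The 4NQO arrays are the 3 lowest for Serpinb7, Serpinb11, Serpinb12, Serpinf1 and Serpina3c and the 3 highest for Serpinb6a, while Serpina3n spreads from 4.89 to 8.97 in the 4NQO group.

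Serpinb3 and Serpinb10, of the same run, were not called. Serpinb3, the squamous cell carcinoma antigen that inhibits cysteine cathepsins, read 6.43, 6.73 and 8.75 log2 on the normal arrays, 8.69, 5.90 and 7.65 on the 4NQO arrays and 8.49, 9.80 and 8.94 on the IL-1Ra arrays. The normal and 4NQO groups each spread over more than 2 log2, and their difference was 0.11 (interval -1.53 to 1.76, limma adjusted p = 0.928). Serpinb10, bomapin, first described in bone marrow, lay between 9.63 and 10.36 log2 on all 9 arrays, with a 4NQO minus normal difference of 0.14 (interval -0.28 to 0.57, adjusted p = 0.628). Relative to the mean of the normal arrays, Serpinb11 and Serpinb7 therefore lay far below 0 on all 4NQO arrays while Serpinb3 and Serpinb10 lay on both sides of it.

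**Figure D3:**
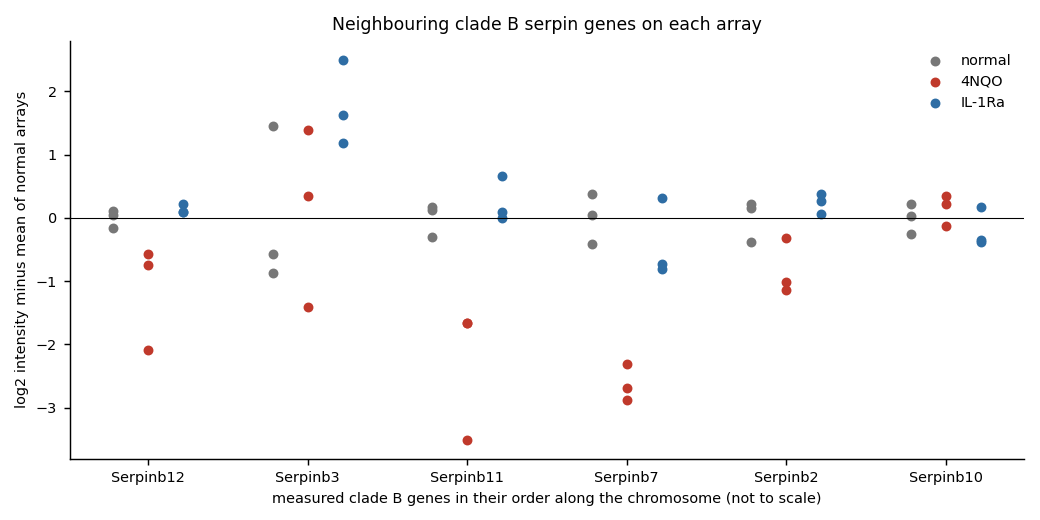
Log2 intensity minus the mean of the 3 normal arrays (y axis) for 6 measured clade B genes in chromosome order (x axis, not to scale); each point is an array, coloured by group. The 4NQO points lie below all others for Serpinb12, Serpinb11 and Serpinb7, partly so for Serpinb2, and among the others for Serpinb3 and Serpinb10.

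In clade B, Serpinb1a and Serpinb6a rose in the 4NQO group. Serpinb1a, an inhibitor of neutrophil elastase, read 9.94, 10.32 and 10.07 log2 on the normal arrays, 10.94, 10.80 and 11.32 on the 4NQO arrays and 10.52, 10.35 and 11.02 on the IL-1Ra arrays. All 4NQO arrays were above all normal arrays, and the IL-1Ra arrays fell in between, overlapping with the 4NQO group. Serpinb1a rose 1.87-fold in the 4NQO group (0.90, 0.47 to 1.34, limma adjusted p = 0.0177). Its second probe set differed by 0.44 (0.03 to 0.85) and did not pass (adjusted p = 0.126). Serpinb6a, an inhibitor of cathepsin G and other serine proteases, read 8.59, 8.89 and 8.72 log2 in the normal group, 9.19, 9.20 and 9.15 in the 4NQO group and 8.71, 8.79 and 8.93 in the IL-1Ra group. The 3 4NQO arrays were the highest of the 9 and lay within 0.1 log2 of each other, and a rise of 1.36-fold passed (0.44, 0.20 to 0.69, adjusted p = 0.0284). The call depended on the scaling: the difference was 0.32 with quantile scaling (limma adjusted p = 0.089) and 0.26 with cyclic loess (0.158). Serpinb9, the inhibitor of granzyme B, differed by 0.19 (-0.60 to 0.97) and did not pass, nor did the dim Serpinb6b (-0.21) and Serpinb9b (-0.53, adjusted p = 0.0501). The second probe set of Serpinb9 had the opposite sign (-0.15, -0.89 to 0.60) and did not pass either.

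Serpina3n, an antichymotrypsin-like serpin of the acute phase response that inhibits granzyme B and elastase, showed the largest rise and the widest spread. It read 4.65, 3.98 and 4.17 log2 on the normal arrays, 8.97, 4.89 and 7.79 on the 4NQO arrays and 4.95, 5.73 and 5.32 on the IL-1Ra arrays. On the linear scale these were 15.8 to 25.1 intensity units in the normal group against 503, 29.6 and 221 in the 4NQO group. All 4NQO arrays were above all normal arrays, but the 4NQO array 2 was below every IL-1Ra array. The mean difference was 2.95 log2 (7.71-fold, interval 1.17 to 4.72, limma adjusted p = 0.0362). The SD within the 4NQO group was 2.10 log2, against 0.34 in the normal group. The difference was 4.11 without the 4NQO array 2 (adjusted p = 0.00192) and no longer passed without the 4NQO array 1 (2.07, adjusted p = 0.0752) or 3 (2.66, 0.0836), without any 1 of the normal arrays (2.80 to 3.14, adjusted p 0.0746 to 0.112), or without the IL-1Ra array 1 or 2, which share the estimate of spread (0.0517 and 0.0507). Serpina3 genes are close paralogs, so the probe set may also take signal from others of them.

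Serpina12, vaspin, an inhibitor of kallikrein 7, read 9.21, 7.32 and 9.02 log2 on the normal arrays, 5.88, 5.52 and 7.50 on the 4NQO arrays and 8.85, 10.05 and 7.34 on the IL-1Ra arrays. Its groups overlapped through 1 array each, and the difference of -2.22 (-3.86 to -0.57) did not pass (limma adjusted p = 0.0695), although it passed without the 4NQO array 3 (-2.82, adjusted p = 0.0401) or the IL-1Ra array 3 (-2.22, 0.0472). Serpina3c, dim on all arrays, read 3.03 to 3.19 log2 in the normal group, 2.65 to 2.71 in the 4NQO group and 2.93 to 3.27 in the IL-1Ra group. The 4NQO arrays were the lowest, and the difference of -0.43 passed (adjusted p = 0.0317), at a level where background may set the value. Of the remaining 9 clade A genes none passed. Among them were Serpina1, antitrypsin (-0.38, -1.21 to 0.46), Serpina4, kallistatin (-0.46, -0.79 to -0.13, adjusted p = 0.0627), and the dim hormone carriers Serpina6 (0.17) and Serpina7 (0.21).

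Serpinf1, pigment epithelium-derived factor, an antiangiogenic serpin that does not inhibit proteases, read 10.59, 10.72 and 10.69 log2 on the normal arrays, 10.17, 8.25 and 9.23 on the 4NQO arrays and 10.42, 10.85 and 10.75 on the IL-1Ra arrays. Every 4NQO array was below every other array, with the 4NQO array 2 lowest again, while the normal arrays lay within 0.2 log2 of each other. Serpinf1 fell 2.73-fold (-1.45, -2.27 to -0.62, limma adjusted p = 0.0303). Its neighbour Serpinf2, antiplasmin, was dim and differed by -0.29 (adjusted p = 0.0725). The other secreted or matrix-linked serpins did not pass. Serping1, the C1 inhibitor, read 9.03, 9.62 and 8.86 log2 in the normal group and 9.52, 8.47 and 8.90 in the 4NQO group, with a difference of -0.21 (-0.94 to 0.52). Serpinh1, the collagen chaperone HSP47, differed by -0.38 (-0.80 to 0.03, adjusted p = 0.179), and its second probe set was dim in all groups. Serpine2, protease nexin-1, differed by 0.06 (-0.39 to 0.51). Serpinc1 (antithrombin, -0.38), Serpind1 (heparin cofactor II, -0.34), Serpine3 (-0.23), Serpini1 (neuroserpin, -0.20) and Serpini2 (-0.36) were dim and did not pass. Over all 15 dim serpin genes the differences ran from -0.53 to 0.21.

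The second comparison asked which serpin genes differed between the IL-1Ra and the 4NQO group. Serpinb11, Serpinb7 and Serpinb2 were higher with IL-1Ra, by 5.78-fold, 4.66-fold and 2.08-fold, and no serpin gene was called lower. These 3 of 33 genes stand beside 2.33% of all probe sets called, 1.59% called higher and 0.731% called lower. Through the brightest probe set of each of the 14217 genes the share called was 2.67%, 272 higher and 107 lower. Before adjustment, 5909 of all 31042 probe sets and 3088 of the 14217 genes had a limma p under 0.05. In limma 13 serpin genes had an unadjusted p under 0.05, and the methods' t-test at an unadjusted p under 0.05 with a fold of 2 or of 1.5 also named Serpinb11, Serpinb2 and Serpinb7, none of them after Benjamini-Hochberg adjustment. The median serpin difference was 0.12 log2 against -0.02 over all probe sets, and 22 of the 33 estimates were above 0. The groups did not overlap for 8 genes, where 20.6% of all probe sets did not. This comparison and the first share the 4NQO arrays, so a gene that reads low on them is pushed down in the first and up in the second.

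Serpinb7 differed by 2.22 log2 (interval 1.54 to 2.90, limma adjusted p = 0.00676), and its second probe set by 2.71 (adjusted p = 0.00667). All IL-1Ra arrays lay above all 4NQO arrays on both probe sets. Serpinb11 differed by 2.53 (1.58 to 3.49, adjusted p = 0.0181) and Serpinb2 by 1.06 (0.55 to 1.56, adjusted p = 0.0455). Both also had every IL-1Ra array above every 4NQO array. Serpinb11 did not pass without any 1 of the IL-1Ra arrays (2.33 to 2.66, adjusted p 0.0573 to 0.0821), and Serpinb2 passed in only 2 of 9 fits with 1 array left out. Serpinb12 (1.26, 0.54 to 1.98, adjusted p = 0.0747) and Serpinf1 (1.45, 0.63 to 2.28, adjusted p = 0.0747) had groups that did not overlap but did not pass. Serpina12 (2.44, 0.80 to 4.09, adjusted p = 0.115) and Serpinb3 (1.66, 0.02 to 3.31, adjusted p = 0.258) had wide intervals and did not pass either. Serpinb3 read 8.49 or more on all IL-1Ra arrays, against a 4NQO range of 5.90 to 8.69.

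For the 3 genes that rose with 4NQO the IL-1Ra group was lower than the 4NQO group without passing. Serpina3n differed by -1.88 (-3.65 to -0.11, limma adjusted p = 0.236) and passed only without the 4NQO array 2 (-3.04, adjusted p = 0.0042). Serpinb6a differed by -0.37 (-0.62 to -0.12, adjusted p = 0.112), with all IL-1Ra arrays below all 4NQO arrays. Serpinb1a differed by -0.39 (-0.82 to 0.05, adjusted p = 0.315).

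The third comparison set the IL-1Ra group against the normal group. No serpin gene passed in limma, where 1.87% of all probe sets did, and 2.20% of the 14217 genes read through their brightest probe set. In limma 6 of the 33 had an unadjusted p under 0.05, where 7044 of all 31042 probe sets did. The methods' t-test named Serpina3n alone with a fold of 2 or of 1.5, and no gene after adjustment. The groups did not overlap for 4 genes, beside 35.3% of all probe sets, and the median difference was -0.02 log2 against -0.01 over all probe sets. The difference was -0.41 for Serpinb7 (-1.08 to 0.27), 0.25 for Serpinb11 (-0.70 to 1.21), 0.13 for Serpinb12 (-0.59 to 0.85), 0.23 for Serpinb2 (-0.27 to 0.74) and 0.00 for Serpinf1 (-0.82 to 0.83). These intervals still admit differences of 0.7 to 1.2 log2 in some direction for each of the 5 genes, so equality was not shown. Serpina3n differed by 1.07 (-0.71 to 2.84, adjusted p = 0.452) with all IL-1Ra arrays above all normal arrays, and it passed when these 2 groups were fitted alone (adjusted p = 0.0335). Serpinb3 differed by 1.77 (0.13 to 3.42, adjusted p = 0.191) and Serpinb1a by 0.52 (0.08 to 0.95, adjusted p = 0.159). The lowest adjusted p was that of the dim Serpinf2, which read 4.05 to 4.18 log2 in the normal group and 3.61 to 3.75 in the IL-1Ra group (-0.42, adjusted p = 0.0596).

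The named differences were unequally stable when 1 array was left out. Serpinb7 passed in all 9 such fits in both of the first comparisons, with differences from -2.84 to -2.44 and from 1.86 to 2.42. Serpinb11 passed in 8 of 9 for 4NQO against normal, failing without the normal array 3 (-2.19, adjusted p = 0.0542). Serpinb1a failed without the normal array 1 or 3 (adjusted p = 0.0617 and 0.0711), and Serpinf1 and Serpinb6a passed in 5 of 9. Serpina3c passed in 4 of 9, Serpinb12 and Serpinb2 in 3, and Serpina3n in 2. Among the other settings, Serpina3c was lost under both other scalings (limma adjusted p = 0.0636 and 0.0687) and with an offset of 32 (-0.08, 0.102). With that offset, and with the 2 groups alone, Serpinf1 (adjusted p = 0.053 and 0.0621) and Serpinb2 (0.0604 and 0.0724) were lost for 4NQO against normal. For IL-1Ra against 4NQO, Serpinb2 was lost under the same settings (adjusted p = 0.0657 and 0.0971) and with 1 probe set per gene (0.0507), and Serpinb11 with the 2 groups alone (0.0682). No named difference that passed changed sign in any of these fits.

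**Figure D4:**
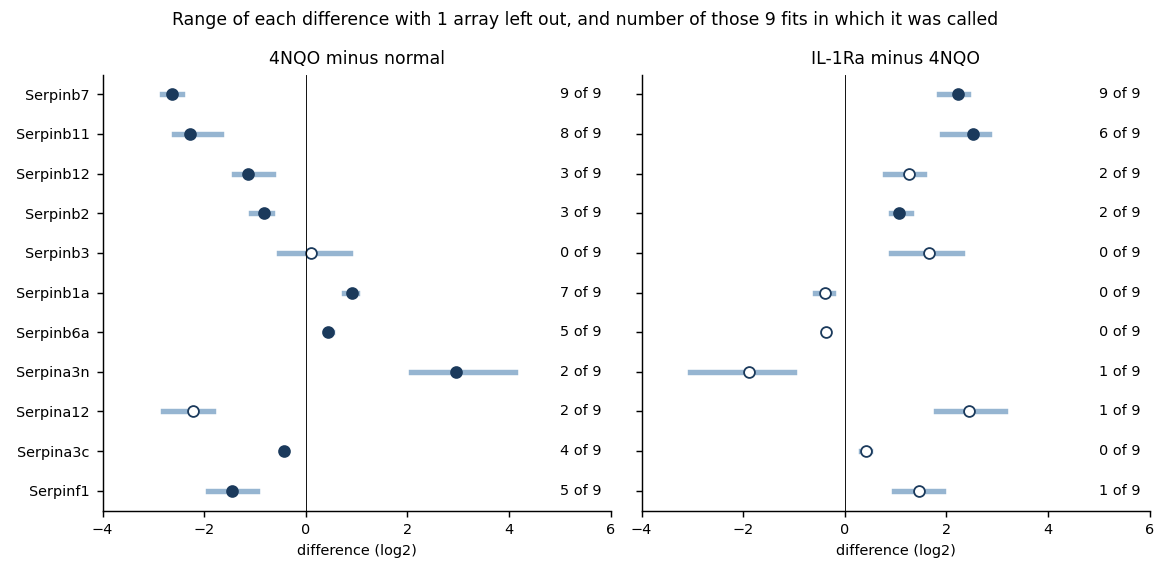
Difference in log2 (x axis) for the named serpin genes (y axis); points are the values from all 9 arrays (filled, limma adjusted p under 0.05), bars run from the lowest to the highest value with 1 array left out, and the numbers count the fits of 9 in which the gene passed. Serpinb7 passed in 9 of 9 in both panels, and Serpina3n has the longest bars, from 2.07 to 4.11 in the first panel.

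The proteases that serpins act on, and other inhibitor families, were read from lists of known members. Their counts for 4NQO against normal stand beside 14.9% of all probe sets called, 9.41% higher and 5.44% lower. For IL-1Ra against 4NQO the shares were 1.59% higher and 0.731% lower, and for IL-1Ra against normal 1.87% were called. In limma 10209, 5909 and 7044 of all 31042 probe sets had an unadjusted p under 0.05 in the 3 comparisons. Of 12 kallikreins and membrane-anchored serine proteases of epithelium that were measured, 5 fell and none rose in the 4NQO group, with a median of -0.76 log2 against 0.01 over all probe sets. They included Tmprss11d, an airway trypsin-like protease (-2.31, limma adjusted p = 0.0133), Klk10, a kallikrein-related peptidase (-1.87, 0.0236), Prss22 (-0.91, 0.0116) and Prss8, prostasin (-0.98, 0.0244). With IL-1Ra 6 of the 12 were higher than in the 4NQO group and none lower, with a median of 1.13 against -0.02. Among them were Klk6 (3.20, adjusted p = 0.003), Prss8 (1.87, 0.0046), Klk10 (2.67, 0.0166) and Prss22 (1.02, 0.0172). Klk6 read 4.57, 5.74 and 4.70 log2 on the normal arrays, 4.16, 3.76 and 4.21 on the 4NQO arrays and 7.74, 6.56 and 7.45 on the IL-1Ra arrays. It was thus above both other groups on all IL-1Ra arrays, and it was the 1 protease of this list called higher than normal (2.25, adjusted p = 0.0344). Its difference between 4NQO and normal did not pass (-0.96, 0.0894).

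Of 23 genes of plasminogen activation and coagulation 4 were called in the 4NQO group, a share near the 14.9% of all probe sets. Plaur, the urokinase receptor, rose in the 4NQO group (0.55, limma adjusted p = 0.0199), and F3, tissue factor (-1.73, 0.019), F12 (-0.45, 0.0356) and Hgfac (-0.76, 0.0051) fell, and the list's median was -0.05. Hgfac, the activator of hepatocyte growth factor, was the only one higher with IL-1Ra than with 4NQO (0.49, adjusted p = 0.0455). Of 16 granule proteases of leukocytes, targets of Serpinb1a, Serpinb6a and Serpina3n among them, 9 were dim and 1 fell, the mast cell carboxypeptidase Cpa3 (-1.33, adjusted p = 0.0366). Of 12 cathepsins Ctsz rose (0.77, 0.0354) and Ctsk (-1.23, 0.0165), Ctsl (-0.57, 0.0375) and Ctsd (-0.47, 0.0286) fell, and Ctsd alone was higher with IL-1Ra than with 4NQO (0.59, 0.0347). None of 10 genes of the complement C1 and lectin pathways, the targets of Serping1, passed in any comparison in limma, and 2, 1 and 0 of them had an unadjusted p under 0.05 in the 3 comparisons. In limma the collagen partners of Serpinh1 had 4 of 21 lower in the 4NQO group, Plod2 (-0.62, adjusted p = 0.0139), Col1a2 (-1.61, 0.0243), Col3a1 (-1.82, 0.0469) and Col1a1 (-1.44, 0.048).

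Of 29 inhibitors of other families 2 fell in the 4NQO group and none rose, a share of lower calls near the 5.44% of all probe sets, with a median of -0.30. Wfdc5, a whey acidic protein domain inhibitor, read 8.97, 8.51 and 9.07 log2 on the normal arrays, 7.39, 5.27 and 7.08 on the 4NQO arrays and 9.35, 9.48 and 9.44 on the IL-1Ra arrays. It fell by 2.27 (limma adjusted p = 0.013) and was 2.84 higher with IL-1Ra than with 4NQO (0.0132). Its 4NQO arrays were the 3 lowest, with array 2 the lowest, as for Serpinb11. Reck, a membrane inhibitor of metalloproteinases, also fell (-0.94, 0.0494), and Cst6 (1.76, 0.0473) and Timp2 (1.23, 0.0386) were higher with IL-1Ra than with 4NQO.

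**Figure D5:**
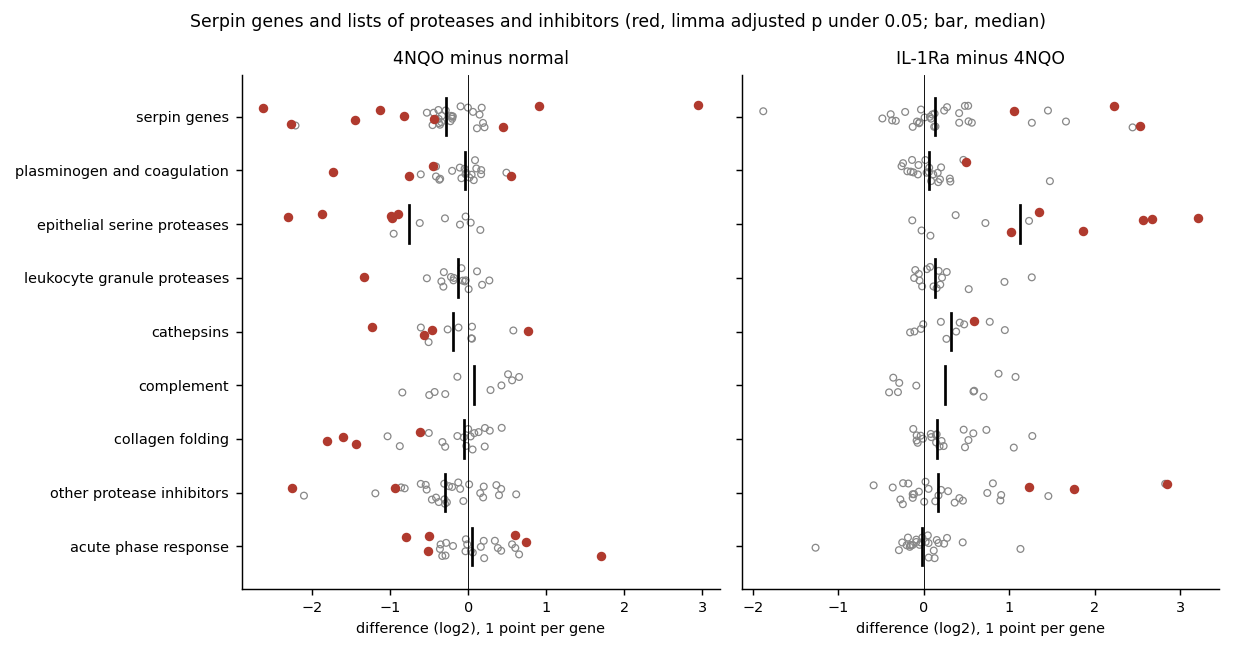
Differences in log2 (x axis) for the 33 serpin genes and 8 lists of proteases, inhibitors and acute phase genes (y axis); each point is a gene, red where the limma adjusted p was under 0.05, and bars are medians. The epithelial serine proteases had medians of -0.76 and 1.13 in the 2 panels, and the serpin genes -0.29 and 0.12.

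Serpina3n was set beside 26 acute phase genes. In the 4NQO group Stat3, the main transcription factor of the response (0.75, limma adjusted p = 0.0157), Lcn2, lipocalin 2 (1.70, 0.028), and Cebpd (0.60, 0.0433) rose, and Lifr (-0.51, 0.0413), Lif (-0.51, 0.0424) and Steap4 (-0.80, 0.0411) fell, with a median of 0.05. Lcn2 read 4.52, 4.60 and 4.59 log2 on the normal arrays, 7.35, 5.16 and 6.31 on the 4NQO arrays and 5.34, 4.87 and 4.80 on the IL-1Ra arrays. Within the 4NQO group both Lcn2 and Serpina3n were highest on array 1 and lowest on array 2. None of the 26 passed in limma between IL-1Ra and 4NQO, and 3 had an unadjusted p under 0.05.

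Markers of cell types moved between the groups as well. Their counts stand beside 9.41% of all probe sets called higher and 5.44% called lower for 4NQO against normal. For IL-1Ra against 4NQO 1.59% were called higher. Of 16 cornified layer markers 7 fell in the 4NQO group and none rose (median -1.35 log2), and 5 were higher with IL-1Ra than with 4NQO (median 1.68). The summed level of the list ran from 16.02 to 16.16 log2 in the normal group, from 14.41 to 15.69 in the 4NQO group and from 16.33 to 16.35 in the IL-1Ra group, with the 4NQO array 2 lowest, as it was for Serpinb11 and Serpinb12. For Serpinb7 array 2 was lowest on the brighter probe set and array 1 on the second. Of 10 basal keratinocyte markers 6 rose with 4NQO and none fell (median 1.09), with summed levels of 13.14 to 13.85, 13.99 to 14.83 and 14.03 to 14.36 in the 3 groups. The part of the epithelial make-up in the serpin differences was not tested.

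Of 11 fibroblast markers 7 fell with 4NQO (median -1.08), with summed levels of 14.28 to 14.49, 12.32 to 13.84 and 13.74 to 14.08 log2, again lowest on the 4NQO array 2, where Serpinf1 was lowest. Of 9 endothelial markers 4 rose (median 0.52), with summed levels of 10.82 to 10.97, 11.21 to 11.56 and 10.87 to 11.16. The 7 neutrophil markers, 4 of them dim, had summed levels of 7.50 to 7.63, 7.59 to 9.53 and 7.58 to 8.37. None passed in limma between 4NQO and normal, with 3 at an unadjusted p under 0.05. With IL-1Ra 1 of the 7 was called higher than with 4NQO, beside 1.59% of all probe sets called higher. The 9 macrophage markers had summed levels of 10.40 to 11.12, 9.59 to 11.24 and 10.69 to 11.38. None of them passed in limma in any comparison. At an unadjusted limma p under 0.05 there was 1 for 4NQO against normal, 2 for IL-1Ra against 4NQO and 0 for IL-1Ra against normal. Of 9 hepatocyte markers, given because many clade A serpins are made in liver, 7 were dim and 1, Alb, fell. The part of these cell types in the differences of Serpinf1, Serpinb1a and Serpina3n was not tested.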

How the data were processed

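Rat tongue RNA from 9 samples was hybridised to 9 arrays. The deposited intensity values are linear and, per the submitters' processing notes, come from RMA in Affymetrix Expression Console, a method that removes background, makes array distributions equal and pools the probes of a set. (Versions: not given in the sources used here.) After log2 of the deposited intensity, 31042 probe sets were tested, without 57 controls. Symbols came from the platform annotation: 20826 probe sets had 1 symbol, 436 several and 9780 none. All 33 serpin identifiers were in the RefSeq table of GRCr8.

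All 9 arrays entered a limma 3.58.1 fit of 3 group means in R 4.3.3 with eBayes (6 residual and 4.01 prior degrees of freedom), two-sided tests and 95% intervals from the moderated error. P-values were adjusted by Benjamini-Hochberg over all probe sets. The serpin genes, the lists of partner and marker genes and the naming rule were chosen with earlier results of these data known. Named in full are Serpina3n, each serpin gene called in any comparison, and each uncalled one with a difference of at least 1 log2. Of each partner list the 4 called members with the lowest adjusted p, at most, are named. Serpinb10, Serping1, Klk6, Wfdc5 and Lcn2 were given in more detail after their values were seen. A list's summed level is the log2 of its summed intensities.

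The methods of the study treat the samples as separate tongues, and the labels give no animals, so p-values measure the spread between these samples. The number of arrays limits the precision. An exact permutation of 3 against 3 arrays could not go below p = 0.1. Alternatives were quantile or cyclic loess scaling, an offset of 32, a filter on the dimmest 40%, eBayes with trend and robust settings, array weights, 2 groups alone, 1 probe set per gene, other probe sets, single arrays left out, and the methods' t-test. The methods name Student's t-test for statistics in general and a fold of 2 or 1.5 for arrays, and joining them was a choice made here. Figures were drawn with matplotlib 3.10.9.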

Additional observations from a re-analysis of the deposited data

How the results depend on the processing

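For 4NQO against normal, 9 serpin genes and 4610 of all probe sets passed. The serpin count was 5 under cyclic loess (2480 probe sets), 4 with an offset of 32 (4621), 2 by the t-test with a fold of 2 (452), 3 with a fold of 1.5 (2249) and 0 after its Benjamini-Hochberg adjustment (1). Leaving out single arrays gave 1 to 10: 1 without the normal array 3 (851 probe sets), 2 without the normal array 1 (1873), and 5 without the normal array 2 (1518) or the 4NQO array 1 (3731). For IL-1Ra against 4NQO, 3 passed (722 probe sets), and the count was 1 with the 2 groups alone (195), 0 by the adjusted t-test, when no probe set passed, and 1 to 5 with single arrays left out, with 1 without any of the 3 IL-1Ra arrays (184 to 245) and 5 without the 4NQO array 3 (2353). For IL-1Ra against normal none passed in limma (581 probe sets), and 6 had an unadjusted p under 0.05 (7044 probe sets). The count was 1 with array weights (3556), 2 with the 2 groups alone (2714), 1 by the t-test with a fold of 2 (195) or 1.5 (1391), and 0 to 1 with single arrays left out, with 1 without the 4NQO array 2 (1396) or 3 (2084). The F test over all groups called 9 (3729 probe sets), and 5, 4 and 4 under quantile scaling (2306), cyclic loess (2135) and the offset (3877), and 1 to 6 with single arrays left out. Serpina3n for 4NQO against normal did not pass under cyclic loess (2.89, limma adjusted p = 0.055), the offset (1.98, 0.09), the trend and robust settings (2.95, 0.0699) or the 2 groups alone (2.95, 0.0729), and ran from 2.07 to 4.11 with single arrays left out. For IL-1Ra against 4NQO it ran from -3.045 to -1.002 with single arrays left out, and for IL-1Ra against normal it passed with the 2 groups alone (1.07, 0.0335). Serpinb7 passed under all 17 alternatives to the limma fit in both of the first comparisons, and no named serpin difference that passed changed its sign under any of them. The cause of the lost calls was not tested. No paired analysis was possible because the labels give the groups no shared replicate numbers. Groups of 3 arrays, values without detection calls and 15 dim serpin genes limit what could be seen.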

Other observations

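Some markers of other tissues and cell types were called as well. Of all probe sets 14.9% were called for 4NQO against normal, 2.33% for IL-1Ra against 4NQO and 1.87% for IL-1Ra against normal. Of 13 skeletal muscle markers 3 were lower with IL-1Ra than with 4NQO, the slow-fibre troponins Tnnt1 (-1.82, limma adjusted p = 0.0487) and Tnnc1 (-1.47, 0.0373) and titin, Ttn (-0.72, 0.0494). Tnnc1 was also lower with IL-1Ra than in the normal group (-1.65, 0.0405), and none passed in limma between 4NQO and normal, with 2 at an unadjusted p under 0.05. Of 8 adipocyte markers Fabp4 (-1.11, 0.0376) and Lpl (-0.93, 0.0362) were lower with IL-1Ra than in the normal group, and Pparg was higher with 4NQO than in the normal group (0.97, 0.0265). Of 9 mast cell markers 1 fell with 4NQO (Cpa3), of 12 T and NK cell markers 1 (Cd4, -0.47, 0.0266), and of 8 nerve markers Gfap was lower with IL-1Ra than in the normal group (-0.61, 0.0455). None of 11 salivary gland markers passed in limma in any comparison, with 2, 2 and 1 at an unadjusted p under 0.05 for 4NQO against normal, IL-1Ra against 4NQO and IL-1Ra against normal.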
